A study of Homo sapiens with 9 samples.

Results

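Axon guidance ligands and receptors were followed in HEK293 cells, a human embryonic kidney line, after knock-down of SmcHD1, a chromatin protein with an SMC hinge domain that is known for its part in X inactivation. They comprise the genes of the semaphorin, plexin, ephrin, Eph receptor, Slit, Robo, netrin, netrin-G and UNC5 families together with NRP1, NRP2 and DCC. All probes whose RefSeq accession is assigned to 1 of these genes were taken, which gave 71 genes of the 19483 named on the array, with 100 probes, and 22 of the 71 genes had more than 1 probe. Of the 71 genes, 37 encode ligands and 34 encode receptors. Stable lines had been made by retroviral infection and puromycin selection, and expressed a hairpin to SmcHD1, either shRNA 3 in the group KD3 or shRNA 4 in the group KD4, while the CTL group expressed the control hairpin NC5. All 3 lines also carried the GFP of the vector, and grew in the same serum-containing medium. Each group was measured on 3 one-color Agilent arrays, and since nothing in the labels says that they came from separate infections, the p-values measure only the spread between these samples. The hairpins are shown because they define the groups, with the loop in capitals and the strands of the stem on either side of it.
KD3: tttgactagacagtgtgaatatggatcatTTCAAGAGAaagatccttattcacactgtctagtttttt
KD4: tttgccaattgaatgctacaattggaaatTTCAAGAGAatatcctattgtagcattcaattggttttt
CTL: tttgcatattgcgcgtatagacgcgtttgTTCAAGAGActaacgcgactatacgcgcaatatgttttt

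Guidance cues are secreted or membrane-bound proteins that attract or repel growing axons and migrating cells. Semaphorins act through plexins, with neuropilins as co-receptors for the secreted class 3, and Slits act through Robo receptors. Netrins act through DCC, which mediates attraction, and UNC5 receptors, which mediate repulsion, while ephrins and Eph receptors are both anchored at the membrane and can signal in both directions. The same families are expressed in the developing kidney and vessels, and HEK293 cells express many neuronal genes.

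Signals are given as log2 of the background-subtracted intensity after quantile normalization. Testing required a signal well above background on all 3 arrays of at least 1 group. All fold changes are on the log2 scale unless a fold is given. A gene was called when a probe had a Benjamini-Hochberg adjusted p under 0.05 from limma, over all 32276 tested probes, and a difference of at least 1.8-fold, which is 0.85 on the log2 scale. The word "fell" or "rose" is used below for an adjusted p under 0.05, whether or not the difference reached 1.8-fold. Of the 71 genes, 66 had a tested probe, and in 60 of them at least 1 such probe passed the background criterion on every one of the 9 arrays. DCC, EPHA1, EPHA6, PLXNB3 and ROBO4 had none, so no change can be given for them. On none of the 9 arrays did a probe of EPHA6, DCC or EPHA1 rise well above background.

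Per array, the median processed signal was 119.6 to 181.4, 76.8% to 81.0% of spots were well above background, and no spot was saturated. With 3 arrays in a group, it is their number that limits precision. On its 3 probes, SMCHD1 retained 49.1% to 51.0% of the CTL signal in KD3 and 34.4% to 35.2% in KD4. All 6 markers chosen for HEK293 cells, VIM, CDH2, NEFL, NEFM, INA and PAX2, were well above background on all 9 arrays. So were all 4 leukocyte markers, 1 of 3 endothelial markers and 2 of 3 fibroblast markers, but neither of the 2 hepatocyte markers was, so that being well above background is a weak criterion for expression in these files. The arrays lay on 2 slides, each with arrays of all 3 groups. The part of the marker genes in the differences was not tested.

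More guidance genes fell than rose in both knock-downs. In KD3, 8 of 66 genes were called, with SLIT1, SLIT3, SEMA3F, SEMA5A, SEMA5B, EPHB1 and PLXNC1 down-regulated and UNC5D up-regulated. The 7 down-regulated genes were 10.6% of the 66, where 3.5% of all 16082 named genes tested were called lower. In KD4, 8 of 66 were called, with SLIT1, SLIT3, SEMA4D, SEMA5B, NTNG2, PLXNA2 and PLXNC1 down-regulated, again 10.6% where 4.71% of all genes were called lower, and UNC5D up-regulated. In both knock-downs, SLIT1, SLIT3, SEMA5B and PLXNC1 were called lower, 4 of 66 or 6.06% (2.66% of all genes), and UNC5D was called higher, 1 of 66 (0.989% of all genes). KD3 and KD4 are compared with the same 3 CTL arrays, so their values are given side by side and are not independent of each other. With the slide as a block 9 genes were called in KD3 and 8 in KD4, including all 8 of each. Of all 16082 genes, 783 in KD3 and 1028 in KD4 were then called. By the methods' t-test, once its p-values were adjusted, 1 gene was called in KD3 (1.52%, against 1.36% of all genes) and 3 in KD4 (4.55%, against 2.89% of all genes), and 0 were called in both (0.846% of all genes). In KD3 the share under that test was thus near that of all genes. Furthermore, PLXNC1 met the background criterion through CTL alone and UNC5D through the knock-downs alone, so that both had to differ to some extent. Among genes with a probe well above background on all 9 arrays, 5 of 60 were called in KD3 (4.08% of all such genes). In KD4 5 of 60 were called (5.27%) and in both 2 of 60 (2.97%). The share called in both was thus near that of all such genes.

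Without the fold threshold, 27 of the 66 genes fell in KD3 (40.9%, against 16.1% of all genes) and 2 rose (against 11.8% of all genes). In KD4, 29 fell (43.9%, against 21.7% of all genes) and 3 rose (against 16.8% of all genes). The genes that fell in both were 22, or 33.3% (13.3% of all genes), of which 10 encode ligands and 12 encode receptors, and ROBO2 and UNC5D rose in both, or 3.03% (9.0% of all genes), of which ROBO2 passed the test in KD3 only narrowly. Taking the probe of each gene with the highest mean signal, the median log2 fold change of the 66 genes was -0.17 in KD3 and -0.25 in KD4, where the median of all 16082 genes was -0.01 and 0.00. Below 0 lay 43 of the 66 genes in KD3, or 65.2% (52.4% of all genes), and 45 in KD4, or 68.2% (49.8% of all genes). With normexp background correction the medians were -0.09 and -0.16. That correction also shrank the fold changes, so that 0 of the 66 genes were called in KD3 and only SEMA5B, lower, and UNC5D, higher, in KD4. Over all genes it reduced the calls from 793 to 318 in KD3 and from 1027 to 396 in KD4. Without the fold threshold, 24 genes still fell and 2 rose in KD3 under normexp, and 26 fell and 5 rose in KD4. In either direction 26 of the 66 genes then passed in KD3 and 31 in KD4. Of all 16082 genes, 4641 in KD3 and 6299 in KD4 passed in either direction, and they were not counted by direction under normexp. All guidance genes called above remained under an adjusted p of 0.05. The sizes given below are therefore those of 1 background correction, the one supplied by the scanner software.

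**Figure D1:**
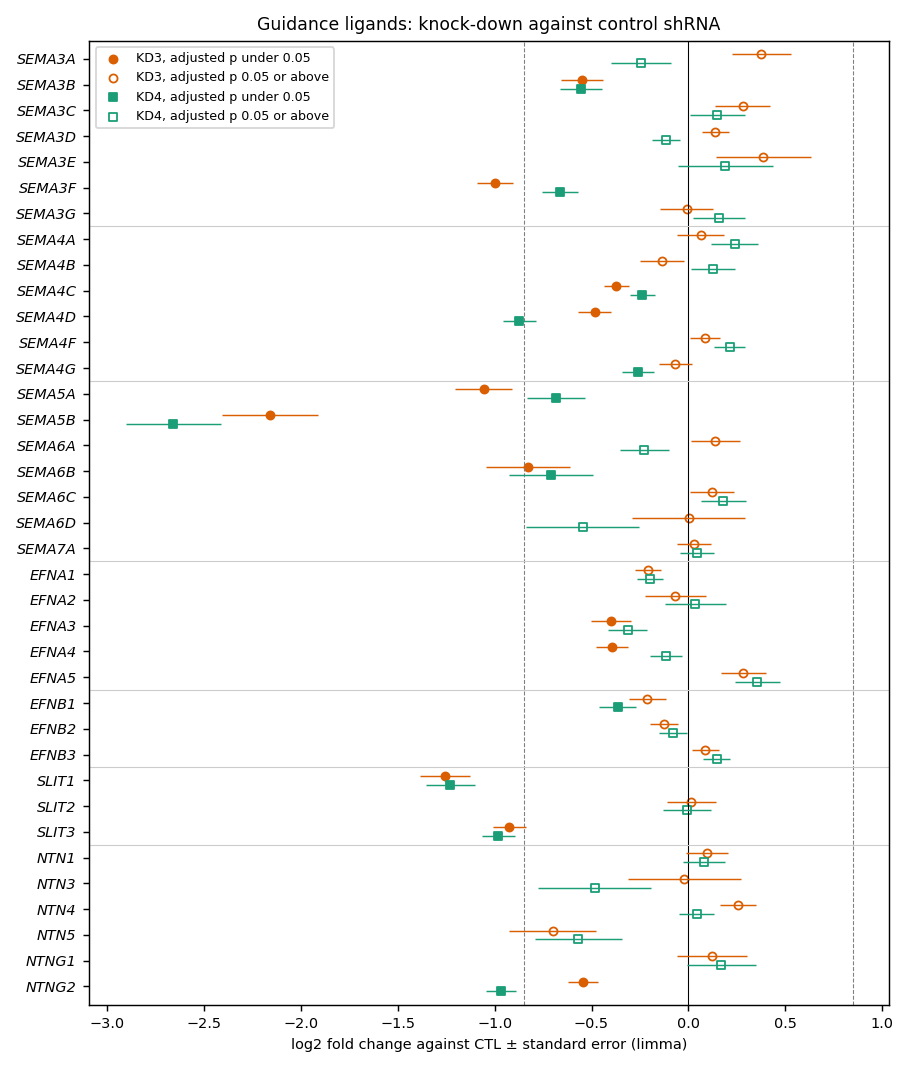
Log2 fold change of the 37 ligand genes in KD3 (circles) and KD4 (squares) against CTL, with standard error, for the probe of each gene with the highest mean signal. Filled symbols have an adjusted p under 0.05 from limma, dashed lines mark 1.8-fold and grey lines separate the families. SEMA5B lies farthest to the left, at -2.16 and -2.66, and SLIT1 and SLIT3 lie left of the dashed line in both knock-downs while SLIT2 lies at 0.

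The Slits are secreted repellents, and 2 of the 3 genes fell. SLIT1 was measured by a pair of probes, and both were called in both knock-downs. For the brighter SLIT1 probe the log2 signal was 6.77, 7.06 and 6.97 on the CTL arrays, 5.69, 5.46 and 5.88 in KD3 and 5.76, 5.81 and 5.54 in KD4. Every knock-down array lay more than 0.85 below the lowest CTL array. On the log2 scale SLIT1 changed by -1.26 in KD3 (SE 0.13, adjusted p = 0.000355) and -1.23 in KD4 (SE 0.13, adjusted p = 0.000313). The dimmer probe gave 5.02, 5.44 and 4.95 in CTL, 4.14, 3.66 and 3.66 in KD3 and 3.68, 3.36 and 2.97 in KD4, the last being well above background on 2 of 3 arrays. On this probe the change was -1.32 in KD3 (adjusted p = 0.00352) and -1.80 in KD4 (adjusted p = 0.000597), with no overlap between CTL and either knock-down.

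SLIT3 gave 8.69, 8.87 and 8.99 in CTL, 7.95, 7.86 and 7.95 in KD3 and 7.84, 7.86 and 7.90 in KD4. The 6 knock-down arrays lay close to each other and below all CTL arrays. SLIT3 changed by -0.92 in KD3 (SE 0.09, adjusted p = 0.000216) and by -0.98 in KD4 (SE 0.09, adjusted p = 0.000132). SLIT2, on the other hand, gave a mean of 10.36 ± 0.245 (SD, n = 3) in CTL, 10.37 ± 0.131 in KD3 and 10.35 ± 0.0734 in KD4. Its knock-down arrays, from 10.22 to 10.47, lay within the range of the CTL arrays, and the log2 fold changes were 0.01 (SE 0.13, adjusted p = 0.955) and -0.01 (SE 0.13, adjusted p = 0.972).

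The bases before the annotated start of the Slit genes are shown since the paralogs differed in their change, and those of SEMA5B because it had the largest fitted decrease of the ligands in both knock-downs. Each sequence is the 250 bases upstream of the start, 5′ to 3′ on the strand of the gene, from RefSeq on GRCh38.p14, with the CpG dinucleotide, the motif CG, in capitals. CG reads the same on both strands, and it was searched without overlap with other motifs. SLIT1 lies on the minus strand at chr10:97185960-97186209, SLIT3 on the minus strand at chr5:169301140-169301389, SEMA5B on the minus strand at chr3:123028606-123028855 and SLIT2 on the plus strand at chr4:20251655-20251904.
SLIT1: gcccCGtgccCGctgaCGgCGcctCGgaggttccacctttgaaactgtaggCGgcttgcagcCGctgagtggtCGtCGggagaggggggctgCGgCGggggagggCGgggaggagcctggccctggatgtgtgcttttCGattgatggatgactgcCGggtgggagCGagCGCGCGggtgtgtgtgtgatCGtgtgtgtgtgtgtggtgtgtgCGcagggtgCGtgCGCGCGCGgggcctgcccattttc
SLIT3: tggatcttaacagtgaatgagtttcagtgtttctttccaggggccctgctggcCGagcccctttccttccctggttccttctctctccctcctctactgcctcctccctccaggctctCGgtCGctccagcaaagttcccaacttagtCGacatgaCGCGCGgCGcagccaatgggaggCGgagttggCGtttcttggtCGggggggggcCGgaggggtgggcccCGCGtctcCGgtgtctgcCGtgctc
SEMA5B: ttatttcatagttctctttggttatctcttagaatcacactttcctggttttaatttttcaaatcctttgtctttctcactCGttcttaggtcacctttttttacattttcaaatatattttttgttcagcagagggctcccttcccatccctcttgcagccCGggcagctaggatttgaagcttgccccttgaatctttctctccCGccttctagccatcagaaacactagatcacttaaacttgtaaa
SLIT2: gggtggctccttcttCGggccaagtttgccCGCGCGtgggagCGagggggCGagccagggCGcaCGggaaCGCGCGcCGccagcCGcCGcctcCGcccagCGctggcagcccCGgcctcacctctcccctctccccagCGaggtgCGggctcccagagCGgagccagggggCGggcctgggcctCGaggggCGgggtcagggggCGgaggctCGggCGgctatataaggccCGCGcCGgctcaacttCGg

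The upstream stretch held 25 CpG dinucleotides in SLIT1, 16 in SLIT3, 3 in SEMA5B and 30 in SLIT2. Of these 4 genes, which were picked by their change, SLIT2 had the most and SEMA5B the fewest. Over the 300 bases described next, SEMA5B held 7, and 37.45% of all promoters held fewer. Promoters of 300 bases, 250 before and 50 after the start, were found for 60 of the 71 genes. All 60 held at least 1 CpG, as did 95.8% of all 27303 promoters of that length. The median was 21 for the guidance genes and 14 for all promoters, which were not restricted by gene type or to genes tested on the array. Of the 22 genes that fell in both knock-downs 18 had a promoter in the table, with a median of 24.5, and the 36 tested genes with a promoter that changed in neither or only 1 had a median of 21.5. DNA methylation was not measured on these arrays, and the counts say nothing of it.

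**Figure D2:**
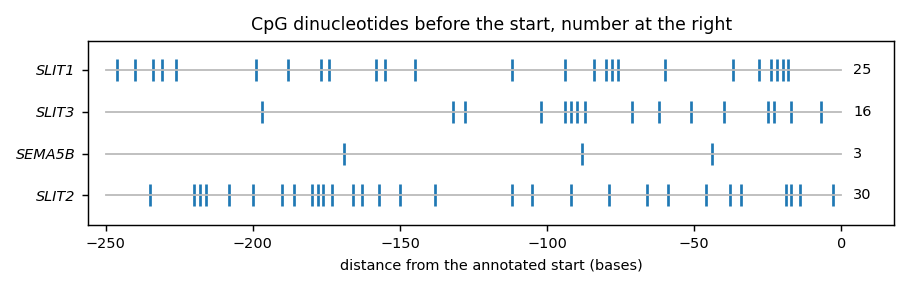
Position of each CpG dinucleotide (vertical marks) in the 250 bases before the annotated start of SLIT1, SLIT3, SEMA5B and SLIT2, with the distance from the start in bases on the horizontal axis. The marks number 25, 16, 3 and 30, with the fewest in SEMA5B and the most in SLIT2.

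Semaphorins changed in a gene-specific manner. Of the 7 class 3 genes, which encode secreted proteins, SEMA3F and SEMA3B fell in both knock-downs and the other 5 did not pass the test in either. SEMA3F, a repellent that binds NRP2, gave 6.83, 6.99 and 6.86 in CTL, 5.74, 5.99 and 5.95 in KD3 and 6.29, 6.11 and 6.29 in KD4. All knock-down arrays were below all CTL arrays, and those of KD3 were below those of KD4. SEMA3F changed by -0.9996 in KD3 (adjusted p = 0.000218) and by -0.66 in KD4 (adjusted p = 0.00128), of which only the first reached 1.8-fold. The direct comparison of KD4 with KD3 gave 0.34 (adjusted p = 0.0988). SEMA3B had log2 fold changes of -0.55 (adjusted p = 0.00925) and -0.56 (adjusted p = 0.00653). These genes lie on chromosome 3 with 3 protein-coding genes between them in the RefSeq table of GRCh38.p14. SEMA3A, the founding chemorepellent of the class, had log2 fold changes of 0.38 in KD3 (adjusted p = 0.126) and -0.24 in KD4 (adjusted p = 0.272).

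SEMA5B, a transmembrane semaphorin with thrombospondin repeats, had log2 signals of 6.04, 6.19 and 6.55 in CTL, 4.28, 3.93 and 4.08 in KD3 and 4.16, 3.50 and 3.14 in KD4. Thus all 6 knock-down arrays were lower than the CTL arrays by more than 1.7, and 1 KD4 array was not well above background. Relative to CTL, SEMA5B changed by -2.16 in KD3 (SE 0.25, adjusted p = 0.000619) and -2.66 in KD4 (SE 0.25, adjusted p = 0.00017). A further SEMA5B probe was well above background on only 1 array and was not tested. Its paralog SEMA5A gave 6.20, 6.28 and 6.50 in CTL, 5.62, 5.17 and 5.02 in KD3 and 5.62, 5.67 and 5.65 in KD4. All knock-down arrays lay below all CTL arrays, and the highest KD3 array lay just under the lowest KD4 array. SEMA5A changed by -1.06 in KD3 (adjusted p = 0.00181) and -0.68 in KD4 (adjusted p = 0.0101), the second below 1.8-fold.

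Of the 6 class 4 genes, which encode membrane-bound proteins, SEMA4D and SEMA4C fell in both knock-downs. SEMA4D, a ligand of plexin-B1, gave 8.73, 8.84 and 8.77 in CTL, 8.36, 8.39 and 8.13 in KD3 and 7.87, 7.86 and 7.99 in KD4. The 3 groups did not overlap, and KD4 was lowest. SEMA4D changed by -0.48 in KD3 (adjusted p = 0.0054) and -0.87 in KD4 (adjusted p = 0.000242), and without CTL replicate 2 the KD4 value was -0.84, just under 1.8-fold. The other SEMA4D probe, of a different transcript accession, disagreed on the call, with -0.23 in KD3 (adjusted p = 0.246) and -0.40 in KD4 (adjusted p = 0.0464). SEMA4C had -0.37 (adjusted p = 0.00481) and -0.24 (adjusted p = 0.025).

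SEMA6B fell on 1 of its 2 tested probes, with -0.83 in KD3 (adjusted p = 0.0295) and -0.71 in KD4 (adjusted p = 0.041). Its CTL arrays, 8.09, 7.21 and 7.31, covered a range wider than the fitted change. The pass was lost in 7 of 20 alternatives in KD3, among them the fits without any 1 KD3 array (adjusted p between 0.0578 and 0.0922), and in 12 of 20 in KD4, among them scaling to the 75th percentile (adjusted p = 0.0646), the replicate number as a block (adjusted p = 0.0526), and the fits without CTL replicate 3, KD3 replicate 2 or 3, or any 1 KD4 array (adjusted p between 0.0511 and 0.113). The other SEMA6B probe gave -0.19 (adjusted p = 0.442) and -0.05 (adjusted p = 0.822). SEMA7A, the membrane-anchored ligand of plexin-C1, had 0.03 (adjusted p = 0.863) and 0.05 (adjusted p = 0.74).

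No ephrin was called. EFNA3 had the largest mean change of the 5 ephrin-A genes, at -0.40 in KD3 (adjusted p = 0.0262) and -0.31 in KD4 (adjusted p = 0.0503), and EFNA4, which adjoins it on chromosome 1, had -0.39 (adjusted p = 0.0109) and -0.12 (adjusted p = 0.329). EFNA5 had 0.28 (adjusted p = 0.126) and 0.36 (adjusted p = 0.0501). Among the 3 ephrin-B genes EFNB1, on the X chromosome, changed most, with -0.21 (adjusted p = 0.166) and -0.36 (adjusted p = 0.0229). EFNB2 and EFNB3 had differences between -0.12 and 0.15, and none passed the test.

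Among the 6 netrin genes only NTNG2 passed the test. NTNG2 encodes netrin-G2, which is attached to the membrane by a lipid anchor and binds LRRC4 rather than the netrin receptors. It gave 9.43, 9.51 and 9.68 in CTL, 8.99, 8.99 and 9.01 in KD3 and 8.60, 8.53 and 8.60 in KD4. The 3 groups did not overlap, with KD4 lowest, and the spread within the knock-downs was small. NTNG2 changed by -0.54 in KD3 (SE 0.08, adjusted p = 0.00196) and -0.97 in KD4 (SE 0.08, adjusted p = 8.36e-05). NTN1, the classical secreted netrin, had 0.09 (adjusted p = 0.604) and 0.08 (adjusted p = 0.622), with CTL arrays between 12.52 and 12.81 and knock-down arrays between 12.70 and 12.95. The other secreted netrin with a large fitted difference, NTN5, had -0.70 (adjusted p = 0.0602) and -0.57 (adjusted p = 0.0923).

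**Figure D3:**
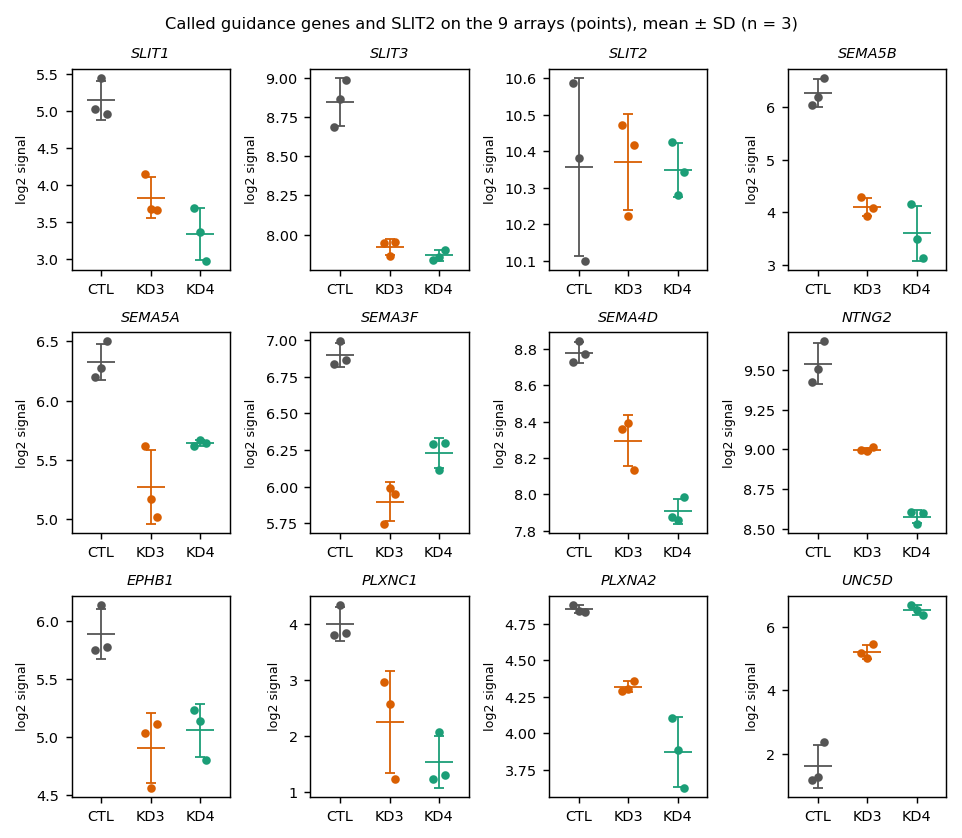
Normalized log2 signal on each array (points) for the 11 called genes and SLIT2, with the mean and SD of the 3 arrays of CTL, KD3 and KD4. Each panel has its own vertical scale, so levels of different genes are not comparable. The CTL arrays of UNC5D and the knock-down arrays of PLXNC1 were not well above background. SLIT1 is shown by its dimmer probe, which, like that of SEMA5B, was well above background on 2 of 3 KD4 arrays. CTL does not overlap with either knock-down in the 11 called genes, which were picked for their difference, while in SLIT2 the groups overlap. The share of all genes without overlap was not counted, so the 11 have no background to be set against.

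Of the receptors, the plexins were mostly lower. Fitted log2 fold changes were below 0 for all 8 tested plexins in both knock-downs, and this was also so with scaling to the 75th percentile, with normexp and with the authors' log2 values. By adjusted p, 6 of the 8 fell in KD3, where 16.1% of all genes did, and 8 of 8 fell in KD4, where 21.7% of all genes did. PLXNA1 and PLXNA4 did not pass the test in KD3, and PLXNB3 was not tested. Only PLXNC1 in both knock-downs and PLXNA2 in KD4 reached 1.8-fold. The median over the 8 was -0.44 in KD3 and -0.63 in KD4. PLXNC1 is included in all of these counts and medians. It met the background criterion through CTL alone, so its direction was largely set by that criterion.

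PLXNC1, a receptor for SEMA7A, had CTL signals of 3.81, 4.34 and 3.85, all well above background. The KD3 arrays gave 2.96, 2.57 and 1.23 and the KD4 arrays 1.24, 2.07 and 1.31, none of which was well above background. Against the lowest signals that were well above background, or the probe's own signal where higher, PLXNC1 was 2.65-fold higher in CTL than in KD3 (adjusted p = 0.021) and 3.11-fold higher than in KD4 (adjusted p = 0.00345). Some signals that were not well above background exceed that lowest signal, so the folds are not strict limits. The adjusted p here compare signals with values not well above background. The call in KD3 was lost without CTL replicate 2 (adjusted p = 0.064) and without CTL replicate 3 (adjusted p = 0.0522).

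PLXNA2 gave 4.88, 4.84 and 4.83 in CTL, 4.29, 4.31 and 4.36 in KD3 and 4.11, 3.89 and 3.63 in KD4. Its 3 groups did not overlap. PLXNA2 changed by -0.53 in KD3 (adjusted p = 0.0114) and -0.97 in KD4 (adjusted p = 0.000498), and with scaling to the 75th percentile the KD4 value was -0.80, under 1.8-fold. PLXNB1, the receptor for SEMA4D, gave 5.33, 5.42 and 5.37 in CTL and between 4.53 and 4.85 on the 6 knock-down arrays. Its log2 fold changes were -0.57 (adjusted p = 0.00415) and -0.73 (adjusted p = 0.000923). PLXNB2 fell on both of its probes, with -0.56 and -0.57 in KD3, -0.83 and -0.76 in KD4 and adjusted p between 0.000406 and 0.0102.

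PLXND1, which is known for its role in vessels as well as axons, had -0.34 (adjusted p = 0.012) and -0.50 (adjusted p = 0.00154). PLXNA3, on the X chromosome, gave 11.40, 11.53 and 11.58 in CTL, 11.15, 11.21 and 11.09 in KD3 and 11.09, 10.93 and 11.05 in KD4. These changes, of -0.35 (adjusted p = 0.0143) and -0.48 (adjusted p = 0.0026), were small but no knock-down array reached the lowest CTL array. PLXNA1 and PLXNA4 fell in KD4 alone by adjusted p, with -0.40 (adjusted p = 0.0315) and -0.52 (adjusted p = 0.0211), while their values in KD3 were -0.32 (adjusted p = 0.0873) and -0.23 (adjusted p = 0.29). Neither passed the direct test of KD4 against KD3. The neuropilins showed no such shift. NRP1 passed the test in KD4 on 1 of its 2 tested probes, with 0.25 (adjusted p = 0.0272) against 0.05 (adjusted p = 0.639) on the other. NRP2 passed it in KD4 on 1 of 3 probes, with -0.24 (adjusted p = 0.0477), while the others gave -0.18 and 0.26.

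**Figure D4:**
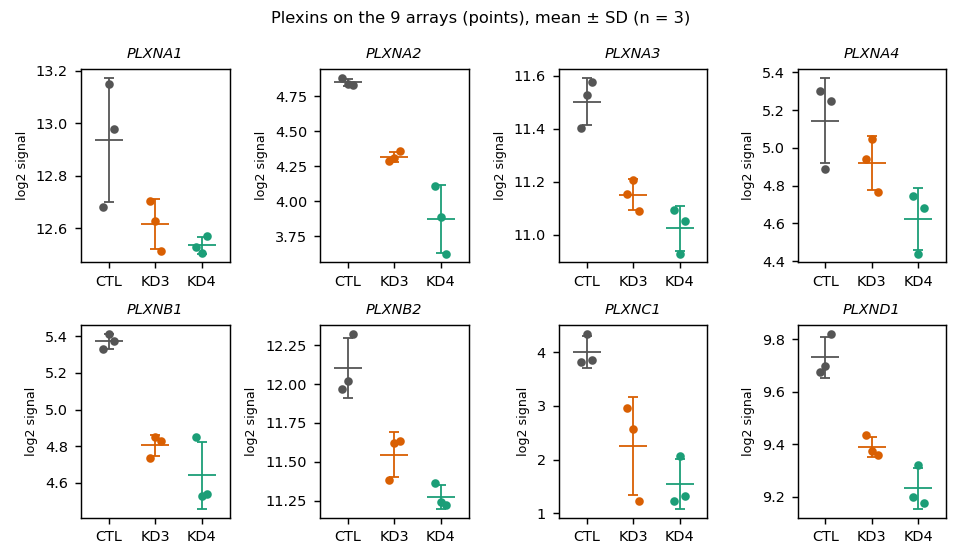
Normalized log2 signal of the 8 tested plexins on each array (points), with the mean and SD of the 3 arrays of CTL, KD3 and KD4, each panel on its own vertical scale. In every panel but that of PLXNC1, whose knock-down arrays were not well above background and have no order, the KD4 mean is below the KD3 mean, which is below the CTL mean, and the KD3 and CTL arrays overlap in PLXNA1 and PLXNA4.

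**Figure D5:**
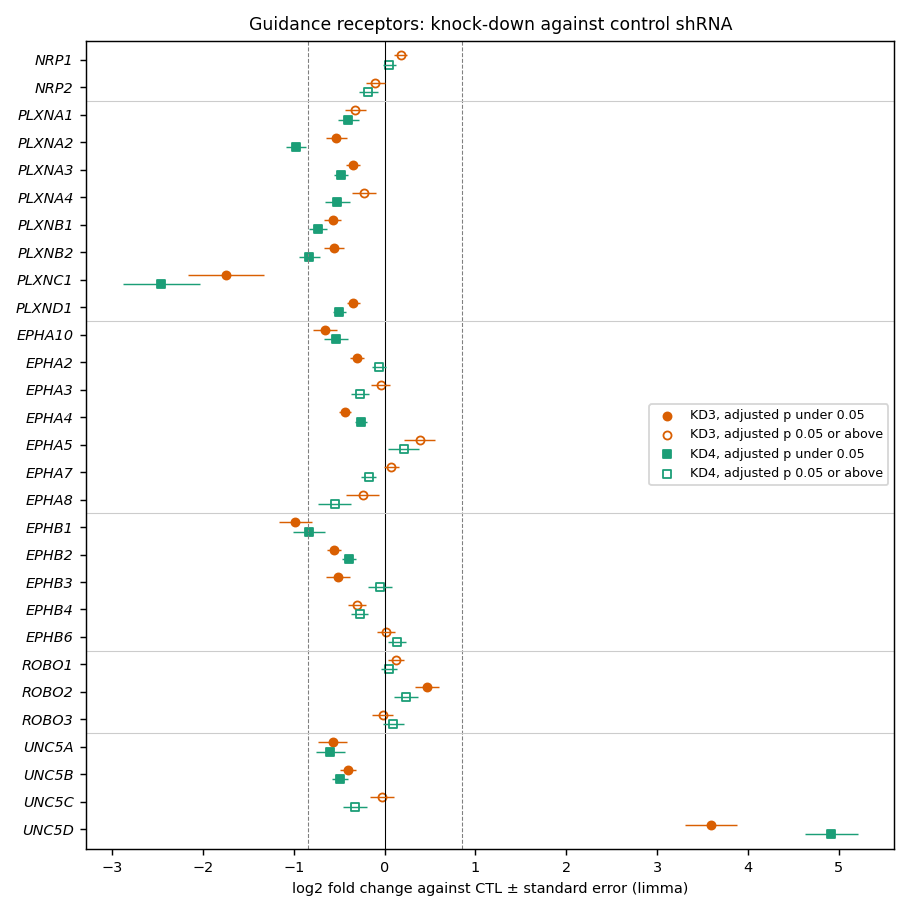
Log2 fold change of the 29 tested receptor genes in KD3 (circles) and KD4 (squares) against CTL, with standard error, for the probe of each gene with the highest mean signal. Filled symbols have an adjusted p under 0.05 from limma and dashed lines mark 1.8-fold. All tested plexins lie left of 0 and UNC5D lies farthest to the right. The positions of UNC5D and PLXNC1 are fitted values and not measured sizes, since the CTL arrays of the first and the knock-down arrays of the second were not well above background.

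The Eph receptors are receptor tyrosine kinases. EPHB1, a receptor for B-type ephrins, gave 5.76, 6.14 and 5.78 in CTL, 5.04, 4.57 and 5.12 in KD3 and 5.24, 5.14 and 4.80 in KD4. KD3 and KD4 overlapped with each other and not with CTL. EPHB1 changed by -0.98 in KD3 (SE 0.18, adjusted p = 0.00621) and -0.83 in KD4 (SE 0.18, adjusted p = 0.00977), which is just short of 1.8-fold. Without KD3 replicate 2 the value in KD3 was -0.81 and no longer called, and without CTL replicate 1, CTL replicate 3, KD4 replicate 1 or KD4 replicate 2 the value in KD4 was called, at -0.90, -0.89, -0.92 and -0.87.

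EPHB2 fell on all 3 probes in both knock-downs, with -0.55 to -0.62 in KD3, -0.39 to -0.56 in KD4 and adjusted p between 0.00117 and 0.0204. EPHB3 fell in KD3, with -0.52 (adjusted p = 0.0248), and had -0.05 in KD4 (adjusted p = 0.792). EPHB6, which lacks kinase activity, had 0.02 and 0.14, neither past the test. Of the EphA genes, EPHA4 gave 11.53, 11.49 and 11.41 in CTL, 11.05, 11.06 and 11.01 in KD3 and 11.22, 11.17 and 11.25 in KD4. The groups did not overlap, and EPHA4 changed by -0.44 in KD3 (adjusted p = 0.0022) and -0.26 in KD4 (adjusted p = 0.017). EPHA10, another member without kinase activity, fell on 1 of its 2 tested probes, with -0.65 (adjusted p = 0.00955) and -0.53 (adjusted p = 0.017), and the other gave 0.02 and 0.17.

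None of the Robo receptors, to which the Slits bind, fell by the test. ROBO2 rose on 1 probe in both knock-downs, by 0.30 in KD3 (adjusted p = 0.0448) and 0.40 in KD4 (adjusted p = 0.0107), and on the other in KD3 by 0.47 (adjusted p = 0.0334), with 0.24 in KD4 (adjusted p = 0.204). The rise of the first probe in KD3 was not stable. It no longer passed the test in 17 of 20 alternatives, among them normexp (0.15, adjusted p = 0.138), the slide as a block (adjusted p = 0.0752), the replicate number as a block (adjusted p = 0.0845) and 8 of the 9 fits without 1 array (adjusted p up to 0.104), with KD3 replicate 3 the exception. ROBO1, its neighbour on chromosome 3, had 0.13 (adjusted p = 0.37) and 0.05 (adjusted p = 0.722). ROBO3 had -0.02 (adjusted p = 0.935) and 0.10 (adjusted p = 0.57).

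The UNC5 receptors did not all change in 1 direction. UNC5D, which binds netrins and FLRT2 and is known from migrating cortical neurons, gave 1.18, 1.28 and 2.38 in CTL, none of them well above background. All knock-down arrays were well above background, at 5.18, 5.01 and 5.45 in KD3 and 6.69, 6.53 and 6.38 in KD4. No KD4 array overlapped with KD3. With CTL not well above background the fit gives no measured size, and its adjusted p compares signals with such values. Against the floor described for PLXNC1, UNC5D was 7.2-fold higher in KD3 than in CTL (adjusted p = 0.000106) and 18-fold higher in KD4 (adjusted p = 1.81e-05). As there, these folds are not strict limits. The direct difference between KD4 and KD3, both measured on all arrays, was 1.32 on the log2 scale (SE 0.29, adjusted p = 0.0537). A further UNC5D probe never rose well above background and gave means of 1.20 in CTL, 2.03 in KD3 and 3.05 in KD4, with no fold drawn from it.

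Of the paralogs, UNC5A and UNC5B fell in both knock-downs. UNC5A gave 5.97, 5.90 and 5.87 in CTL, 5.52, 5.08 and 5.43 in KD3 and 5.22, 5.08 and 5.66 in KD4. All knock-down arrays were below CTL, with log2 fold changes of -0.57 (adjusted p = 0.0382) and -0.60 (adjusted p = 0.0249). UNC5A was close to the threshold. It no longer passed the test in 11 of 20 alternatives in KD3 and in 10 of 20 in KD4, among them normexp (adjusted p = 0.0735 and 0.0842) and the fits without any 1 CTL array (adjusted p between 0.0571 and 0.0952), and over all fits without 1 array the adjusted p reached 0.113 in KD3 and 0.0812 in KD4. UNC5B gave 13.08, 13.27 and 13.10 in CTL and between 12.61 and 12.89 in the knock-downs, and changed by -0.41 (adjusted p = 0.0132) and -0.49 (adjusted p = 0.00441). UNC5C had -0.06 (adjusted p = 0.824) and -0.03 (adjusted p = 0.922) on its 2 probes in KD3. In KD4 the first passed the test, with -0.54 (adjusted p = 0.0259), and the second had -0.33 (adjusted p = 0.103).

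KD4 and KD3 were also compared directly. None of the 66 genes was called, where 0.653% of all genes were. By adjusted p alone, 1 gene, NTNG2, differed (3.73% of all genes), with a difference, KD4 minus KD3, of -0.42 (SE 0.08, adjusted p = 0.03). The methods' t-test with adjustment called 0 of the 66 genes and also 0 of all genes. Its 0 therefore says nothing of the guidance genes in particular. UNC5D was called higher in KD4 with the authors' log2 values, with each comparison fitted alone and without CTL replicate 1 or CTL replicate 3.

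A pair of lists of other guidance genes was examined beside the families. Of 32 co-receptors and related cues, 26 were tested. In both knock-downs 1 was called lower (2.66% of all genes), which is near the share of all genes, and without the fold threshold 7 fell (13.3% of all genes) and 1 rose (9.0% of all genes). The called gene was LINGO1, part of the Nogo receptor complex, with -0.94 in KD3 (adjusted p = 0.000348) and -1.35 in KD4 (adjusted p = 4.32e-05) on its brighter probe. NEO1, RTN4R, NRCAM, BOC, PTK7 and VEGFA also fell and PTCH1 rose on at least 1 probe each. LRRC4C, the partner of netrin-G1, was called in KD4 alone, with 0.50 in KD3 (adjusted p = 0.319) and 1.92 in KD4 (adjusted p = 0.00275). Its mean log2 signals were 3.25 in CTL, 3.75 in KD3 and 5.17 in KD4, so these sizes rest on a low CTL signal. The direct difference had an adjusted p of 0.0568. The median of the list was -0.13 in KD3 and -0.07 in KD4.

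Of 65 cytoplasmic signalling genes 62 were tested, and 6 were called lower in both knock-downs (2.66% of all genes). By limma 0 were called higher in either (1.43% of all genes in KD3 and 1.68% in KD4). By adjusted p alone 6 rose in each (11.8% of all genes in KD3 and 16.8% in KD4). CRMP1 and DPYSL4 encode collapsin response mediator proteins, which act downstream of semaphorins. CRMP1 changed by -1.62 in KD3 (adjusted p = 2.25e-05) and -1.24 in KD4 (adjusted p = 6.72e-05), and DPYSL4 had -1.14 (adjusted p = 0.000163) and -0.89 (adjusted p = 0.000464) on 1 of its 2 probes. The other, brighter DPYSL4 probe disagreed, with -0.11 (adjusted p = 0.602) and -0.01 (adjusted p = 0.97), and with the brightest probe of each gene 4 genes of the list were called instead of 6. ABLIM3, which encodes an actin-binding LIM protein, had -0.91 (adjusted p = 0.00376) and -1.14 (adjusted p = 0.000941). NGEF, an exchange factor that binds Eph receptors, had -0.92 (adjusted p = 0.000515) and -1.01 (adjusted p = 0.000261). SRGAP3, a GTPase-activating protein of the Slit-Robo pathway, had -0.90 (adjusted p = 0.0307) and -0.95 (adjusted p = 0.0188). Without the fold threshold 13 genes of this list fell in both (13.3% of all genes) and 3 rose (9.0% of all genes), among them PAK3 and SRGAP1. The median of the list was -0.10 in KD3 and -0.01 in KD4.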

How the data were processed

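Spot intensity as deposited by the authors is the green processed signal, which Agilent Feature Extraction (version 10.10.1.1) had background-subtracted, and a table of log2 values, which the authors had quantile normalized, served as an alternative. Control spots and outlier spots (260 to 634 of 58717 per array) were left out, quantile normalization of the log2 signals used limma 3.58.1 in R 4.3.3, and spots of a probe were averaged (at least 0.5 of them well above background, for a probe to count so). Genes were named by RefSeq accession with a table of GRCh38.p14; the array design uses an earlier build. One limma fit (lmFit, eBayes) held all 9 arrays, and it was tested on simulated data. The members, the lists and the cell type markers were chosen with earlier results of these data known. Genes named are those called, up to 12 further genes with an adjusted p under 0.05 in both knock-downs and the same direction, 1 per other family, untested genes, genes whose probes disagree and up to 10 called list genes per list; others named, such as SLIT2, SEMA7A, NTN1 and those that changed in 1 knock-down, were chosen after their values were seen, for completeness of a family. As alternatives, signals were scaled to the 75th percentile or corrected by normexp (offset 50, on the median signals), and the authors' values, other filters, the methods' t-test, other fits and blocks, and the data without each array were used. Values of 2 genes of the cytoplasmic list, which are included in its counts, are not reported here.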

Additional observations from a re-analysis of the deposited data

Results flagged for a closer look

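NTNG2 was the only guidance gene for which KD4 and KD3 differed in their change from CTL by a direct test with an adjusted p under 0.05. The difference, KD4 minus KD3, was -0.42 on the log2 scale (SE 0.08, adjusted p = 0.03 from limma), with all 3 KD4 arrays (8.53 to 8.60) below all 3 KD3 arrays (8.99 to 9.01). It did not reach 1.8-fold.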

How the results depend on the processing

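The main counts were 8 genes called in KD3, 8 in KD4, 5 in both and 0 between the knock-downs, and 1 and 6 in both for the co-receptor and cytoplasmic lists. They became, in that order for the guidance genes, 0, 2 and 0 under normexp, 5, 5 and 2 for probes well above background on all 9 arrays, and 1, 3 and 0 with the methods' t-test and adjustment, the cytoplasmic list falling to 2 under normexp and 2 with that t-test, and the co-receptor list to 0 with it. Slide 1 held 1 KD3 array, and slide 2 held 1 KD4 and 1 CTL array, which were assumed to vary like the other groups. The fits within a slide therefore say little, and their counts, which also moved, are left out. Without the fold threshold the 6 counts were 29, 32, 24, 1, 8 and 16. All genes, in the order of the guidance counts, gave 4485, 6157, 3577 and 600. Added after seeing the data, the same with normexp gave 26, 31, 21, 4, 7 and 17, with scaling to the 75th percentile 28, 27, 21, 1, 9 and 18, and with the authors' log2 values 29, 36, 25, 3, 9 and 16. For all genes normexp gave 4641, 6299, 3686 and 862. Scaling gave 4361, 5939, 3406 and 584, and the authors' values gave 4543, 6181, 3609 and 695. Between the knock-downs 1 gene was called with the authors' log2 values, the methods' t-test without adjustment or each comparison fitted alone. All genes gave 114, 137 and 95 under these settings. With an array left out, the counts ranged from 0 to 1 between the knock-downs, 1 to 2 for co-receptors and 4 to 6 for cytoplasmic genes. All genes then gave 82 to 113 between the knock-downs and 530 to 607 in both. The cause of these changes was not tested, beyond the fewer arrays or genes of some settings. With the replicate number as a block (replicate block) the counts were 8, 8, 5, 0, 1 and 5. Same-numbered arrays of different groups deviated with correlations of -0.08 to 0.14, and differently numbered ones with -0.14 to 0.14. No sign of a pairing by number was thus seen, though with 3 arrays in a group a weak one could be missed. Signs turned in slide-wise fits for EFNB1 (0.0223 in KD3, slide 2) and NRP2 (0.0465 in KD3, slide 1). Of 1032 values of named genes under alternatives, 845 kept their direction and side of the threshold and 174 no longer passed it. By adjusted p alone, leaving out 1 array also ended the pass of EFNA3 in KD3 (4 of 9 arrays, adjusted p up to 0.0748), EFNB1 in KD4 (4, 0.0752), EPHA4 in KD4 (2, 0.064), EPHA10 in KD4 (1, 0.0617), PLXNA3 in KD3 (1, 0.0517) and UNC5B in KD3 (1, 0.0505). Low signal over background limits PLXNC1, SEMA5B, UNC5D in CTL and the 5 untested genes.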
